A study of Mus musculus with 3 samples.

Results

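Transcripts of 10 genes for JmjC histone demethylases were followed in developing mouse T cells and their stromal feeder cells, with and without phospho-ascorbate (pAsc), a stable form of vitamin C. The genes were Kdm2a, Kdm2b, Kdm3a, Kdm3b, Kdm4a, Kdm4b, Kdm4c, Kdm5a, Kdm5b and Kdm6b, and the array names them Fbxl11, Fbxl10, Jmjd1a, Jmjd1b, Jmjd2a, Jmjd2b, Jmjd2c, Jarid1a, Jarid1b and Jmjd3. They were taken by gene name, with no threshold on their values, and every probe of each gene was used. They hold 21 of the 41174 probes and are 10 of the 27729 genes on the array.

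Bone marrow progenitors of C57BL/6 mice had been cultured toward the T lineage with Flt3L and IL7. Their feeder layer was OP9-DL1, a stromal line from bone marrow that carries the Notch ligand Dll1. On the first T cell array, cells that received 800 µM pAsc for the last 24 h of a culture of 14 days were set against untreated cells of 14 days. On the second, cells that received 800 µM pAsc for the last 72 h of a culture of 17 days were set against untreated cells of 17 days, so that time with pAsc and day of culture cannot be told apart between these arrays. On the third, OP9-DL1 cells alone, of the strain B6-C3Hf1, with 800 µM pAsc for 24 h were set against untreated OP9-DL1 cells. Untreated RNA was labelled with Cy3 and treated RNA with Cy5 throughout, with 1 array per comparison, 0 replicate arrays and no dye swap. No p-value is therefore given, and a dye effect of a single gene cannot be told apart from the treatment.

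JmjC enzymes remove methyl groups from histone lysines with molecular oxygen, 2-oxoglutarate and ferrous iron, and ascorbate helps to keep that iron reduced. Methylation of H3K4 and H3K36 is found at active genes, and that of H3K9 and H3K27 is tied to silencing. Kdm2 enzymes act on H3K36, Kdm3 enzymes on H3K9, Kdm4 enzymes on H3K9 and H3K36, Kdm5 enzymes on H3K4 and Kdm6 enzymes on H3K27. The arrays measure the RNA of these genes and not the activity of the enzymes.

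Each gene was called measured where its probe was well above background in both channels, which held for 14346, 16971 and 16282 genes on the stromal, 24 h T cell and 72 h T cell arrays. All 10 members were measured on all 3 arrays by their brightest probe, and 18, 21 and 20 of their 21 probes were above background in both channels. Different probes of a gene had a pooled SD of 0.18, 0.14 and 0.18 in their log2 ratio, a technical spread that says nothing of how much cultures vary. Of 14 T lineage marker genes, 13 were above background in both channels of the 24 h T cell array, where Thy1 was not, and all 14 on the 72 h array. In OP9-DL1 cells 3 of the 14 were above background untreated and 4 treated. The labels call OP9-DL1 cells osteoblasts, and 5 of 6 osteoblast markers were above background in them, while Ibsp, a bone matrix protein gene, was not. Stromal cells had been depleted from the T cells by adherence, yet 13 and 14 of 15 stromal markers were above background in untreated T cell RNA at 24 h and 72 h. Their summed level was 103247 untreated and 196389 treated at 24 h, and 253623 and 420330 at 72 h, against 444525 and 589483 in OP9-DL1 cells. Every stromal marker measured in both channels was higher in treated T cell RNA, 13 at 24 h with a median log2 ratio of 0.82 and 14 at 72 h with a median of 0.76. The summed level of 5 natural killer cell markers was 70483 untreated and 61381 treated at 24 h, and 50886 and 23109 at 72 h. That of 4 mast cell markers was 10028 and 8699 at 24 h, and 6087 and 1826 at 72 h. These sums are led by the brightest genes. The median log2 level of the natural killer cell markers was 7.46 and 6.79 at 24 h, and 8.73 and 7.70 at 72 h. For mast cell markers it was 7.21 and 7.08 at 24 h, and 7.13 and 7.41 at 72 h, where the sum was lower with treatment. Natural killer cell markers were below 0 for 5 of 5 measured at 24 h and 4 of 5 at 72 h. Mast cell markers were below 0 for 2 of 3 and 1 of 2. T lineage markers themselves had log2 ratios below 0 for 8 of 13 measured at 24 h, with a median of -0.02, and for 10 of 14 at 72 h, with a median of -0.08. Their summed level was 155105 untreated and 161320 treated at 24 h, and 172425 and 150062 at 72 h. Osteoblast markers were above 0 for 4 of 4 measured on each T cell array, B lineage markers for 7 of 7 at 24 h and 1 of 6 at 72 h, and myeloid markers for 3 of 5 on each. The part of these differences in cell type markers in the T cell results below was not tested. In bulk RNA, fewer cells of a type and less RNA per cell cannot be told apart.

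The array reads each gene through probes of 60 bases, and several results below turn on which stretch of a transcript a probe reads. Shown are probes of the members whose values changed most with the probe or the time. Positions are the array maker's on mouse build mm9, and exon and UTR annotation of that build was not used here. The Kdm3a probe is at chr6:71541910-71541969 on the minus strand. The first Kdm5a probe, at chr6:120362327-120362386 on the plus strand, lies in 1 run. The second and brightest Kdm5a probe joins pieces that span 1592 bases, chr6:120380280-120381871 on the plus strand, so it crosses an intron. The Kdm5b probe is at chr1:136485365-136485424 on the plus strand, starting at base 577 of its transcript, whereas the brightest Kdm5b probe starts at base 5801. The single Kdm6b probe also joins pieces, at chr11:69213554-69213698 on the minus strand, a span of 145 bases.
Kdm3a, probe A_52_P133965: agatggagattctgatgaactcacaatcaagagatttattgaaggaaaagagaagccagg
Kdm5a, probe A_51_P258381: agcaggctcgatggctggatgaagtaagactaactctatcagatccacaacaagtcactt
Kdm5a, probe A_52_P374669: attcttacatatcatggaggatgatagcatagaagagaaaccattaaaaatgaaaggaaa
Kdm5b, probe A_52_P584874: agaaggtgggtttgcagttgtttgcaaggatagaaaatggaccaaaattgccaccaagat
Kdm6b, probe A_51_P122017: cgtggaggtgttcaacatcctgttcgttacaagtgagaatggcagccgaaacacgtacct

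The demethylase transcripts differed by less than 1.5-fold between treated and untreated cells, and most of them were lower with pAsc. None of the 10 passed a rule of 1.5-fold on the stromal array, on which 4.98% of measured genes passed it in either direction. None passed it on the T cell arrays either, where 3.42% of measured genes did at 24 h and 3.87% at 72 h. With shares this small, a count of 0 among 10 genes does not set the members apart from other genes. The log2 ratio of treated over untreated was below 0 for 10 of 10 members in stromal cells, against 46.6% of measured genes. It was below 0 for 8 of 10 in T cells at 24 h, against 45.3%, and for 8 of 10 at 72 h, against 49% of measured genes. The median log2 ratio of the members was -0.18 in stromal cells, -0.07 for T cells at 24 h and -0.27 at 72 h, and that of all measured genes was 0.02, 0.02 and 0.01. In T cells at 72 h, 5.3% of measured genes had a lower ratio than Kdm5a, 5.7% than Kdm2b and 6.3% than Kdm3a. The share was 8.1% for Kdm6b, 9.8% for Kdm2a, 12.4% for Kdm4b, 21.0% for Kdm4a, 28.8% for Kdm5b, 52.0% for Kdm3b and 81.4% for Kdm4c. Under a median centring of the array in place of loess, on all probes, 0 members were below 0 on any array, because that scaling moved the median of all genes to 0.64, 0.41 and 0.54. Relative to that median, 9, 5 and 8 of 10 members were still lower, so the direction in T cells at 24 h depended on the scaling. With median centring on measured probes, 7, 5 and 7 members were below 0.

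**Figure D1:**
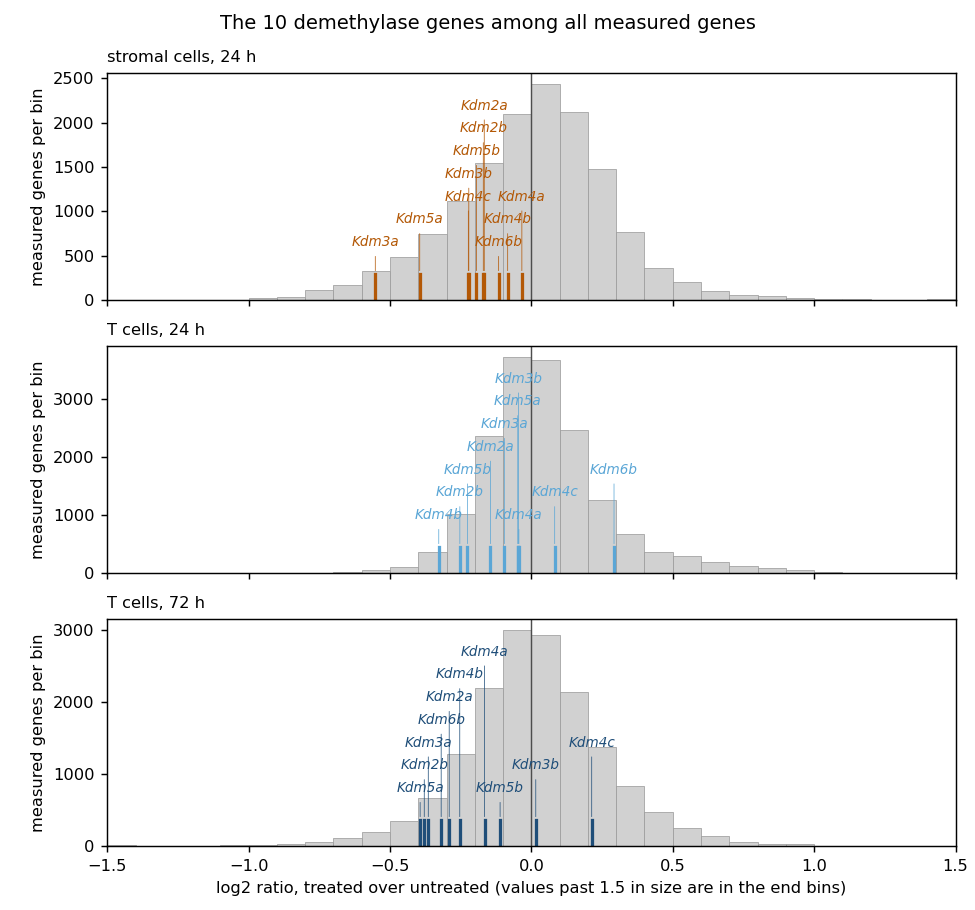
Histograms of the log2 ratio of treated over untreated for all measured genes on each array, in bins of 0.1, with each demethylase gene marked by a coloured tick and its name at the value of its brightest probe. All 10 ticks are left of 0 in stromal cells, while Kdm4c and Kdm6b are right of 0 in T cells at 24 h and Kdm3b and Kdm4c at 72 h.

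Kdm2a, Kdm2b, Kdm3a, Kdm4a, Kdm4b, Kdm5a and Kdm5b were below 0 on all 3 arrays, 7 of 10 members, against 14.5% of the 13595 genes measured on all 3. The remaining members, Kdm3b, Kdm4c and Kdm6b, were below 0 in stromal cells and above it on at least 1 T cell array. The 3 arrays share the dye orientation, so a direction common to them cannot be told apart from a dye effect. The size of the log2 ratio was beyond the SD between probes for 5 members in stromal cells, 5 at 24 h in T cells and 7 at 72 h, while 47.9%, 42.0% and 42.1% of all measured genes were beyond it.

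**Figure D2:**
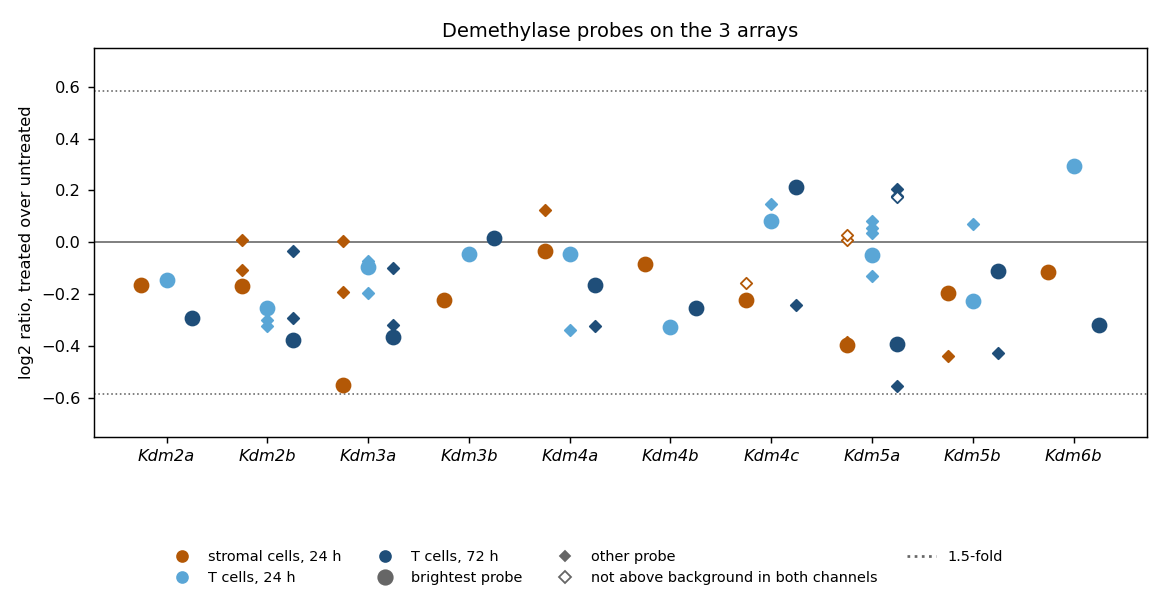
Log2 ratio of treated over untreated for each of the 21 demethylase probes on the 3 arrays, with the brightest probe of a gene as a large circle, other probes as diamonds and open symbols for probes not above background in both channels. No probe reaches the dotted lines at 1.5-fold, and the probes of each of the 6 genes with several probes lie apart on at least 1 array.

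Among the H3K36 demethylases, Kdm2a and Kdm2b were slightly lower in treated RNA on every array. Levels are given as log2 signal scaled to be comparable across the 6 channels. They are compared within a probe, except where a median over probes is named. Kdm2a, which has 1 probe, had levels of 9.23 untreated and 9.06 treated in stromal cells, 8.72 and 8.57 at 24 h in T cells, and 8.44 and 8.15 at 72 h. Its log2 ratio was -0.17, -0.15 and -0.29, of which the value in stromal cells was within the SD between probes and that at 24 h just beyond it. Kdm2b, which recruits a Polycomb complex to CpG islands, had levels of 9.99 and 9.82 in stromal cells, 10.72 and 10.47 at 24 h in T cells, and 10.10 and 9.72 at 72 h. The log2 ratio of its brightest probe was -0.17, -0.25 and -0.38, and the ratio of 1.30-fold lower at 72 h was the largest of this pair. The other 2 probes of Kdm2b gave -0.30 and -0.32 at 24 h, close to the brightest, but -0.29 and -0.03 at 72 h and 0.01 and -0.11 in stromal cells. So all 3 Kdm2b probes were lower in treated T cells on both arrays, by amounts that varied most on the 72 h array. The probe with -0.03 was dim, with net signals of 31.4 untreated and 59.9 treated before normalization.

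The H3K9 demethylase Kdm3a had the lowest ratio of any member. Its levels by the brightest probe were 10.57 untreated and 10.02 treated in stromal cells, 12.03 and 11.94 at 24 h in T cells, and 11.62 and 11.25 at 72 h. The log2 ratio was -0.55 in stromal cells, or 1.47-fold lower, against -0.10 at 24 h in T cells and -0.36 at 72 h. By the deposited Agilent log ratio the stromal value was -0.59, just past 1.5-fold. The other 2 Kdm3a probes did not share the stromal value: the probe printed above had -0.19 and the remaining probe 0.00. That remaining probe had net signals of 16.8 and 35.8 in stromal cells, near background. In T cells at 24 h the 3 probes had -0.10, -0.07 and -0.19, and at 72 h -0.36, -0.32 and -0.10. The stromal difference of Kdm3a thus rests on its brightest probe, and with the median over its probes it was -0.19. Kdm3b, a close relative with 1 probe, had levels of 9.18 and 8.96 in stromal cells, 8.89 and 8.85 at 24 h in T cells, and 8.72 and 8.73 at 72 h. Its log2 ratio was -0.22 in stromal cells and -0.05 and 0.02 in T cells, both within the SD between probes.

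Members of the Kdm4 group, which act on H3K9 and H3K36, went different ways in T cells. Kdm4a had levels of 12.56 and 12.53 in stromal cells, 12.16 and 12.12 at 24 h in T cells, and 12.16 and 12.00 at 72 h. Its log2 ratio was -0.03, -0.04 and -0.17 by the brightest probe, each within the SD between probes, and 0.12, -0.34 and -0.32 by the other. Kdm4b, with 1 probe, had levels of 10.03 and 9.95 in stromal cells, 9.53 and 9.20 at 24 h in T cells, and 9.13 and 8.88 at 72 h. With a log2 ratio of -0.33 it was the lowest member in T cells at 24 h, with -0.25 at 72 h and -0.08 in stromal cells. Kdm4c had levels of 8.79 and 8.57 in stromal cells, 9.81 and 9.89 at 24 h in T cells, and 9.42 and 9.64 at 72 h. Its log2 ratio was -0.22 in stromal cells, 0.08 at 24 h in T cells and 0.21 at 72 h, the only member above 0 on both T cell arrays by these values. By the deposited Agilent log ratio the 24 h value was -0.01. The second Kdm4c probe was not above background in treated stromal cells, and gave 0.15 at 24 h and -0.24 at 72 h with net signals no higher than 51.7. The probes of Kdm4c therefore differed in sign at 72 h.

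The H3K4 demethylases Kdm5a and Kdm5b were lower in treated stromal cells by every probe above background. Kdm5a had levels of 9.998 and 9.60 in stromal cells, 11.09 and 11.04 at 24 h in T cells, and 10.26 and 9.86 at 72 h by its brightest probe. The log2 ratio was -0.39 in stromal cells, -0.05 at 24 h in T cells and -0.39 at 72 h. In stromal cells the 3 Kdm5a probes above background were nearly equal, at -0.39, -0.39 and -0.39. At 72 h they were not: the first Kdm5a probe printed above had -0.56 and the second -0.39, whereas a probe farther toward the 3′ end, at chr6:120392097-120392156, had 0.21. Another, dim probe was at 0.18 at 72 h, and the last was not above background there. The Kdm5a probes thus ran from 1.47-fold lower to 1.15-fold higher on 1 array, and the median over the measured ones was -0.11. Kdm5b had levels of 10.14 and 9.94 in stromal cells, 10.05 and 9.82 at 24 h in T cells, and 9.50 and 9.39 at 72 h by its brightest probe. The log2 ratio was -0.19, -0.23 and -0.11. The Kdm5b probe printed above gave -0.44 in stromal cells, 0.07 at 24 h in T cells and -0.43 at 72 h. On the first and last of these arrays it was lower than the brightest probe by more than the SD between probes, and at 24 h it was higher.

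**Figure D3:**
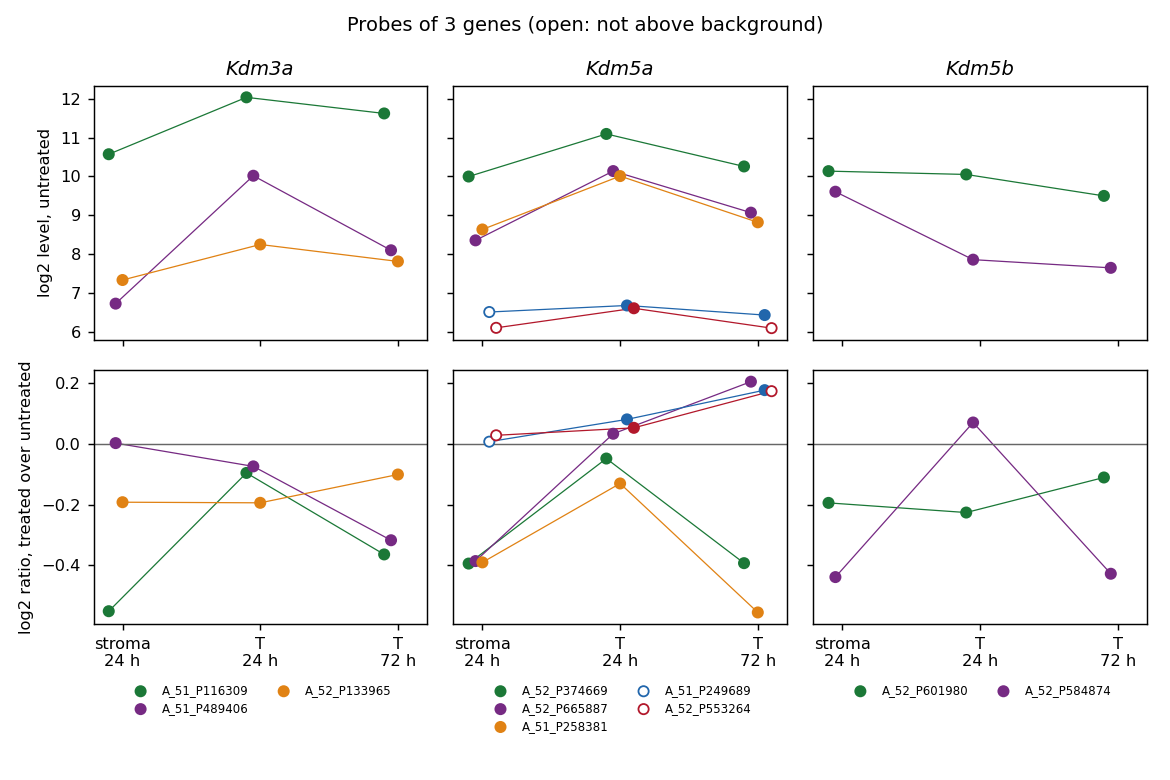
Probes of Kdm3a, Kdm5a and Kdm5b, with the log2 level in untreated cells above and the log2 ratio of treated over untreated below, for stromal cells at 24 h and T cells at 24 h and 72 h. Lines join the values of 1 probe, open symbols are not above background, and the 3 brighter Kdm5a probes coincide in stromal cells but run from -0.56 to 0.21 at 72 h.

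Kdm6b, which removes H3K27 methylation and is known as an early response gene in immune cells, was the member whose ratio differed most between the T cell arrays. It had levels of 10.30 untreated and 10.18 treated in stromal cells, 10.80 and 11.09 at 24 h in T cells, and 9.995 and 9.68 at 72 h. The log2 ratio was -0.12 in stromal cells, 0.29 at 24 h in T cells and -0.32 at 72 h, the value at 24 h being the highest of any member on any array. Its ratio at 72 h lay 0.61 below that at 24 h, or 1.53-fold, and it was the only 1 of 10 members past 1.5-fold in this difference, which 3.49% of genes passed. The SD between probes in this difference was 0.18, but Kdm6b has only the probe printed above. Under median centring on all probes it no longer passed 1.5-fold. The next largest differences between the T cell arrays were those of Kdm5a, at -0.35, and Kdm3a, at -0.27, both also lower at 72 h. With medians over measured probes, taken on each array and then subtracted, they were -0.14 for Kdm5a and -0.22 for Kdm3a. Within single probes Kdm3a differed by -0.27, -0.24 and 0.09, and the measured Kdm5a probes by -0.35, 0.17, -0.43 and 0.10. By the brightest probe the remaining 7 members were within the SD between probes.

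Between stromal cells and T cells, both after 24 h with pAsc, 0 of 10 members differed in their ratio by 1.5-fold, against 9.73% of genes. By the brightest probes the ratio in stromal cells minus that in T cells was -0.46 for Kdm3a, -0.41 for Kdm6b, -0.35 for Kdm5a and -0.31 for Kdm4c. The other 2 Kdm3a probes had 0.08 and 0.00, both within the SD between probes. The 3 brighter Kdm5a probes had -0.35, -0.42 and -0.26, and the second Kdm4c probe was not measured in this difference. Medians over measured probes, taken on each array and then subtracted, gave -0.10 for Kdm3a, -0.42 for Kdm5a and -0.34 for Kdm4c. These medians do not compare like probes. Kdm4b was on the other side, with a stromal ratio 0.24 higher. By the brightest probe these 5 members were beyond the SD between probes in this difference, 0.21.

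Apart from the treatment, some members differed in level between cell types by their brightest probe. In untreated RNA, Kdm3a was 2.75-fold, Kdm5a 2.13-fold and Kdm4c 2.02-fold lower in stromal cells than in T cells at day 14. These were 3 of 10 members at least 2-fold lower, against 15.6% of genes. With the median over probes 2 members were, and Kdm4c, whose second, dim probe had 0.06, was at -0.48 in log2. Kdm2b was 1.66-fold lower. The other 6, from Kdm6b at -0.50 to Kdm2a at 0.51 in log2, were within the SD between probes, which was 0.61 for this comparison. In this comparison 0 of 10 members were at least 2-fold higher in stromal cells, against 24.7% of genes. The median difference was 0.26 in log2 for all genes and -0.21 for the members. Against untreated T cells of day 17, 1 of 10 members was at least 2-fold lower in stromal cells, Kdm3a at 2.07-fold, beside 10% of genes. Here Kdm4b was 1.87-fold, Kdm2a 1.73-fold and Kdm5b 1.55-fold higher in stromal cells, and 0 of 10 were at least 2-fold higher, against 16.2% of genes. In treated RNA the same 3 genes, Kdm3a, Kdm5a and Kdm4c, were at least 2-fold lower in stromal cells than in T cells at day 14, by 3.78-fold, 2.71-fold and 2.50-fold, against 16.8% of genes. Again 0 of 10 were at least 2-fold higher, against 24.3% of genes.

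**Figure D4:**
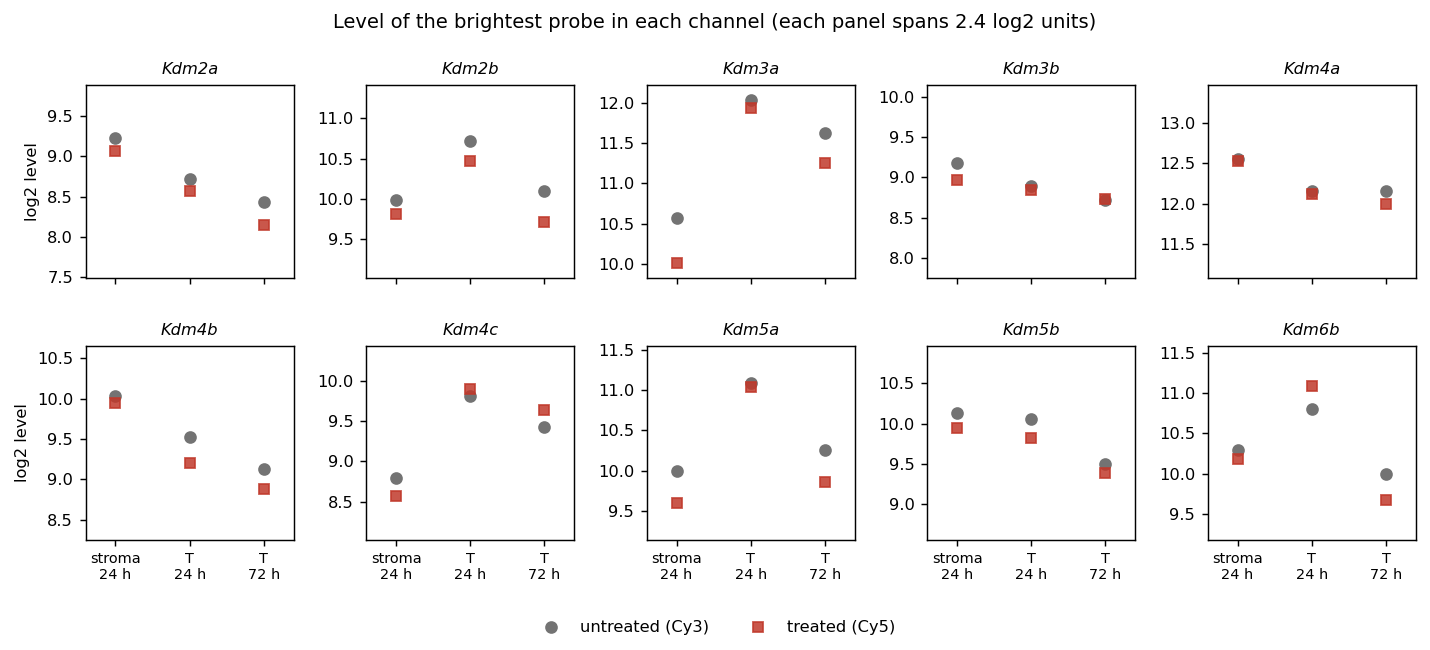
Log2 level of the brightest probe of each of the 10 genes in untreated (grey circles, Cy3) and treated (red squares, Cy5) RNA on the 3 arrays, with panels of equal span. Kdm3a, Kdm4c and Kdm5a stand higher in T cells at 24 h than in stromal cells, and each gene is at or below its 24 h T cell level at 72 h.

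All 10 members had lower levels in untreated T cells at day 17 than at day 14 by their brightest probe, against 50.3% of genes, and 9 with the median over probes. Kdm5a was 1.78-fold, Kdm6b 1.75-fold and Kdm2b 1.54-fold lower, 3 of 10 past 1.5-fold in either direction, against 26.4% of genes. Kdm5b at 1.46-fold, Kdm3a at 1.33-fold, Kdm4b at 1.32-fold and Kdm4c at 1.31-fold lower were by their brightest probe also beyond the SD between probes, 0.34 in log2. Kdm2a, Kdm3b and Kdm4a were within it, and Kdm4a had 12.16 on both days. In treated cells Kdm6b was 2.67-fold and Kdm5a 2.27-fold lower at day 17 than at day 14, so that 2 of 10 were at least 2-fold lower, against 5.39% of genes. Untreated stromal marker levels in T cell RNA also differed between these days, as given above, and their part in the level differences was not tested.

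In order of untreated level by the brightest probe, Kdm3a was highest in T cells at day 14, then day 17, then stromal cells, with each step beyond the SD between probes. Kdm4c kept that order, also with each step beyond it, but its second probe was 0.25 higher at day 17 than at day 14, and with the median over probes that step was -0.07, within the SD. Kdm5a and Kdm2b were highest at day 14, and for both the values at day 17 and in stromal cells did not differ beyond that SD. Kdm2a, Kdm3b, Kdm4a, Kdm4b and Kdm5b were highest in stromal cells and lowest at day 17, but none of the 5 differed beyond it between stromal cells and day 14. Kdm6b was highest at day 14, and only its step from day 14 to day 17 was beyond the SD.

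Probes of a gene also disagreed in level. The Kdm5b probe printed above was 3.35-fold higher in untreated stromal cells than in T cells at day 14, whereas the brightest Kdm5b probe was 1.06-fold higher. For Kdm3a, the probe at chr6:71553188-71553247, which the array takes from a cDNA clone, was 9.74-fold lower in stromal cells than in T cells at day 14. Its net signal in untreated stromal cells was 16.8, near background, so the size of that difference is uncertain. The same probe was 3.77-fold lower at day 17 than at day 14. The brightest Kdm3a probe was 2.75-fold and 1.33-fold lower in the same comparisons, and the Kdm3a probe printed above 1.88-fold and 1.35-fold lower. For Kdm5a the 3 brighter probes shared the direction, at 2.13-fold, 3.43-fold and 2.59-fold lower in stromal cells than at day 14.

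The other genes for proteins with a JmjC domain had medians just above 0. Of 21 such genes on the array 18, 17 and 18 were measured, with 13, 15 and 11 above 0 and median log2 ratios of 0.07, 0.06 and 0.07, in the order stromal cells, T cells at 24 h, T cells at 72 h. Of all measured genes, 46.6%, 45.3% and 49% were below 0 on these arrays. Kdm5d, the Y-linked relative of Kdm5a, was the only one of the 21 past 1.5-fold, at 0.66 in T cells at 72 h. Jmjd8 was highest in stromal cells at 0.58, where Tyw5, a tRNA-modifying enzyme gene, was at -0.40 and Jmjd1c, a relative of Kdm3a, at -0.33. Kdm1a and Kdm1b, which demethylate histones through a flavin and not through iron, were at -0.08 and -0.18 in stromal cells, -0.12 and -0.13 at 24 h in T cells, and -0.15 and 0.03 at 72 h. The direction of this pair depended on the scaling. Relative to all genes its median was -0.15, -0.14 and -0.06 by loess, but 0.08, 0.01 and 0.15 under median centring on all probes.

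Among enzymes that place the marks, the lowest ratios were in stromal cells. The 4 genes of the H3K27 methyltransferase complex had a median log2 ratio of -0.42 there, with Suz12 at -0.56, Ezh2 at -0.46, Eed at -0.38 and Ezh1 at 0.09. Their medians in T cells were -0.06 and -0.11. Setd2, which trimethylates H3K36, was at -0.71 in stromal cells, -0.12 at 24 h in T cells and 0.20 at 72 h, while the 5 H3K36 methyltransferase genes had medians of -0.15, 0.02 and 0.17. Kmt2c, which methylates H3K4, was at -0.61, -0.13 and -0.43, and the medians of the H3K4 list were -0.08, -0.13 and -0.12 over 6, 7 and 7 measured genes. The 6 H3K9 methyltransferase genes had medians of 0.02, -0.17 and -0.07, with the furthest value at -0.30 for Suv39h1 at 72 h. Of the 8 genes for partners of Kdm2b in its Polycomb complex, Rnf2 at -0.62 and Rybp at -0.61 were past 1.5-fold in stromal cells and Bcorl1 at 0.97 in T cells at 24 h, with list medians of -0.21, 0.03 and -0.01. The scaling changed some of this. Under median centring on all probes, tried for the lists after seeing the data, the stromal median of the H3K27 complex lay at -0.40 relative to that of all genes, against -0.44 by loess. The stromal median of the Kdm2b partners lay at -0.04 relative to all genes, against -0.23 by loess. Their medians in T cells at 24 h and 72 h moved from 0.01 and -0.01 by loess to 0.21 and 0.25. In T cells the H3K27 complex turned from -0.08 and -0.12 relative to all genes by loess to 0.09 and 0.06. The stromal H3K36 median moved further down, from -0.16 by loess to -0.46. In T cells at 24 h and 72 h the H3K4 list moved from -0.15 and -0.12 by loess to -0.02 and -0.01. There the H3K9 list moved from -0.19 and -0.07 by loess to -0.07 and -0.003. The 10 demethylases had -0.20, -0.01 and -0.22 relative to all genes under that centring, against -0.20, -0.09 and -0.28 by loess.

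**Figure D5:**
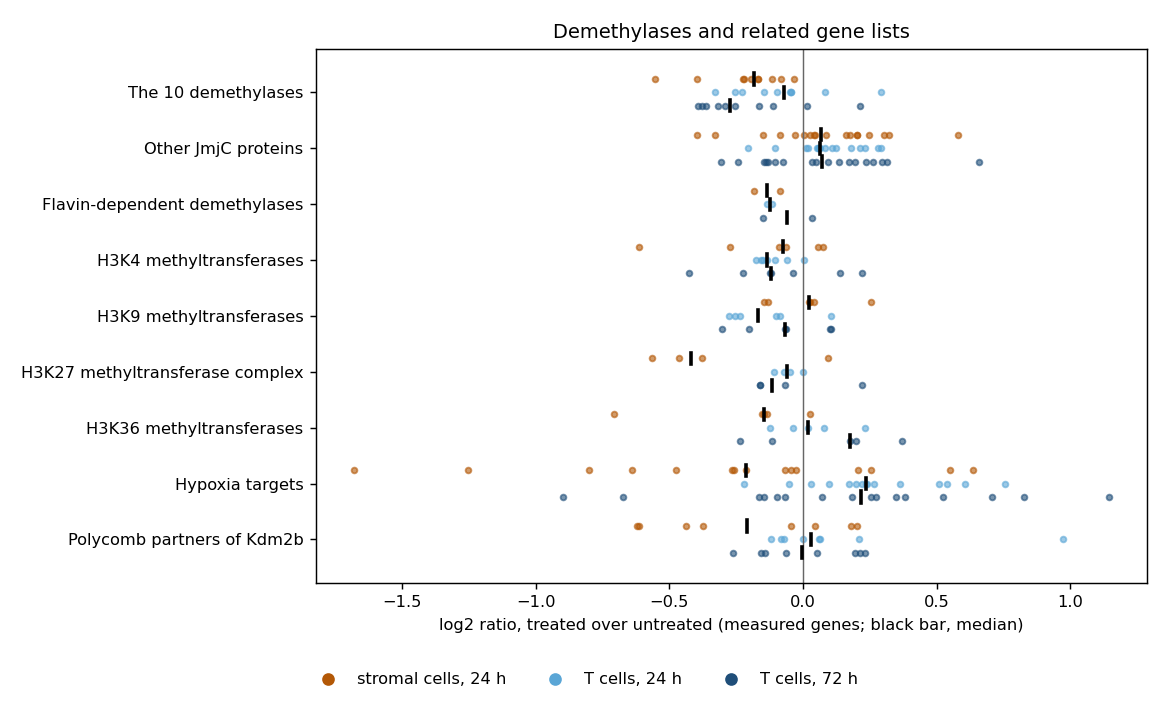
Log2 ratio of treated over untreated for the 10 demethylases and 8 related gene lists, 1 point per measured gene and 1 row per array, with the median as a black bar. The demethylase medians lie at -0.18, -0.07 and -0.27, and the hypoxia targets spread widest, from Ankrd37 at -1.68 in stromal cells to Ldha at 1.14 in T cells at 72 h.

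Hypoxia targets are of interest here because Kdm3a, Kdm4b and Kdm4c belong to the genes known to be induced through hypoxia-inducible factors, whose own hydroxylases also use iron and 2-oxoglutarate. In stromal cells 11 of 15 measured targets were below 0 and 4 above it, with a median log2 ratio of -0.21. Of all measured genes there, 46.6% were below 0. Past 1.5-fold, 4 targets were lower and 1 higher, against 4.98% of measured genes in either direction. Ankrd37 at -1.68 and Ndrg1 at -1.25 were lowest, and Adm at 0.64 was highest. Relative to all genes the stromal median of the targets was -0.23 by loess and -0.03 under median centring on all probes. In T cells 13 of 15 were above 0 at 24 h, with a median of 0.23, and 10 of 16 at 72 h, with a median of 0.22. On these arrays 45.3% and 49% of measured genes were below 0. Ldha, the lactate dehydrogenase A gene, was at 1.14 at 72 h and Adm at 0.83, while Ankrd37 and Ndrg1 were at -0.90 and -0.68 there. Kdm3a had -0.55, -0.10 and -0.36 on the same arrays and Kdm4c -0.22, 0.08 and 0.21, while Kdm4b had -0.08, -0.33 and -0.25.

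RefSeq promoters of build GRCm38.p6 were listed for 5 members with 11 start sites. The 250 bases before each start were searched on both strands for ACGTG, 1 form of the core letters read by hypoxia-inducible factors. Other forms of the core, such as GCGTG, were not searched for. A match was present in 2 of the 11 member promoters, 1 each of Kdm4c and Kdm5b, which is 18.2%, near the 16.6% of all 32851 promoters listed. The 3 Kdm3a promoters held no ACGTG on either strand in this window, which does not show that they lack other forms of the core. The Kdm4c promoter with matches is chr4:74251629-74251878 on the plus strand and that of Kdm5b is chr1:134559928-134560177 on the plus strand. Capitals mark ACGTG or its reverse complement CACGT. In Kdm4c both matches fall in the palindrome CACGTG, which reads the same on both strands and is also the E-box bound by other factors. They are shown because these are the members that hold ACGTG, and a match is not evidence of binding.
Kdm4c promoter: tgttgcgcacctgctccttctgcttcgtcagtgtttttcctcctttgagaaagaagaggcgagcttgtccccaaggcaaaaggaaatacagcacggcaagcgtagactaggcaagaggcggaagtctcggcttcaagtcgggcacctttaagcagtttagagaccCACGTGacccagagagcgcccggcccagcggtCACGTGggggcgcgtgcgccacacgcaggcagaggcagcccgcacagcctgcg
Kdm5b promoter: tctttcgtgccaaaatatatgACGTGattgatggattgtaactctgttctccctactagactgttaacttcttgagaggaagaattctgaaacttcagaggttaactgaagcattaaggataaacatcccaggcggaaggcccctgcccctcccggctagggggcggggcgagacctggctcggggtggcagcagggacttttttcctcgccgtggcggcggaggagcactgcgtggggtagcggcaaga

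The genes whose 3 log2 ratios lay closest to those of Kdm3a, the member with the largest ratio in size, were sought among 13595 genes measured on all arrays. The nearest was a gene listed only by the identifier 100039851, at a Euclidean distance of 0.042, with -0.57, -0.12 and -0.40. Next were Neat1, a long noncoding RNA, with -0.59, -0.10 and -0.39 at a distance of 0.050, and Rcor2, a corepressor gene, with -0.54, -0.14 and -0.37 at 0.050. The likeness is over 3 ratios that share dye orientation and slide.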

How the data were processed

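RNA of 3 comparisons was measured on 2-colour Agilent arrays, all on 1 slide. The intensity values (mean signal and median local background per spot) were deposited unnormalized. Per the file headers they come from Agilent Feature Extraction, version 10.5.1.1. The deposited log10 ratio of Cy5 over Cy3 is background-subtracted and dye-normalized, per the file headers, and served as an alternative. In R 4.3.3, limma 3.58.1 corrected the background by normexp with an offset of 50, which shrinks ratios of dim probes, and normalized each array by loess with a span of 0.3. Control spots and outlier-flagged spots, 117 to 130 per array, had weight 0. The log2 SD between repeat spots was 0.066 to 0.070. Channel levels were scaled across arrays with Aquantile. The brightest probe stood for a gene. As an alternative, the median over measured probes was taken on each array. Differences between arrays then subtracted these medians, so they can set unlike probes against each other. Rows were named through RefSeq accessions for 25097 probes, by symbol for 6333, by synonym for 1640 and otherwise by the file. The steps were tested on simulated data. Tables were handled with Python 3.11.15 and pandas 2.3.3.

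With 1 array per comparison no test was made, and the rules were 1.5-fold and 2-fold. The number of arrays limits the precision. Members and lists were chosen with earlier results of these data known. All 10 members are named, up to 4 genes per other list with the largest log2 ratio in size, and the 3 genes closest to the member with the largest ratio. Of the other lists the text gives the genes that illustrate each group.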

Additional observations from a re-analysis of the deposited data

Results flagged for a closer look

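By its brightest probe the ratio of Kdm4c had opposite signs on the stromal array, -0.22, and the 72 h T cell array, 0.21, a difference of 0.44 in log2. Its second, dim probe had -0.24 at 72 h, and the median over probes there was -0.01, so the opposite sign rests on 1 probe. With 1 array on each side the difference was not tested.

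The ratio of Kdm6b had opposite signs on the T cell arrays, 0.29 at 24 h and -0.32 at 72 h, a difference of -0.61 in log2, which was likewise not tested.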

How the results depend on the processing

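No paired analysis was possible because each comparison has 1 array. Members past 1.5-fold numbered 0 on every array as reported, 1 in stromal cells (Kdm3a) with the Agilent log ratio, and 3 (stromal), 1 (T cells, 24 h) and 1 (T cells, 72 h) with median centring on all probes. Members below 0 numbered 10, 8 and 8 as reported, 0, 0 and 0 with median centring on all probes, and 7, 5 and 7 with centring on measured probes. Members past 1.5-fold in the difference between the T cell arrays numbered 1 as reported and 0 with median centring on all probes. Under the remaining alternatives these counts, and those on levels, stayed within 1.5 times of the reported ones: an offset of 0, plain background subtraction, a loess span of 0.7, outlier spots kept, no filter on dim probes, the median over probes and, for levels, quantile normalization. Of 390 alternative values for single members 335 moved by less than the SD between probes and 55 by more, of which 35 came with median centring on all probes and 14 with the median over probes. Part of the 335 could not move. The 30 values without a filter on dim probes equal the reported ones, because every brightest probe was measured. For the 4 members with 1 probe the median over probes is that probe. No member spot was flagged as an outlier, so keeping such spots could change little.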
